A study of Mus musculus with 6 samples.

Results

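The 10 genes described here encode the integrin subunits that epithelial cells are known for: the alpha subunits Itga2, Itga3, Itga5, Itga6 and Itgav and the beta subunits Itgb1, Itgb4, Itgb5, Itgb6 and Itgb8. They were chosen by symbol, and all 10 were found among the 52550 genes listed, within a family of 27 integrin subunit genes. Their RNA was measured in fluorescent cells that had been sorted out of Sox9-GFP embryonic livers of CD-1 mice. Each stage, E16.5 or E18.5, has 3 libraries (replicates A, B and C). The labels round the stages to embryonic days 16 and 18. The embryos of both stages carried the same reporter, in which green fluorescent protein marks cells where Sox9, a transcription factor of bile duct cells, is active, and no treatment was given. Livers were pooled, digested with collagenase and dispase, depleted of cells with haematopoietic lineage markers on magnetic beads, and sorted for fluorescence. The labels call the cells cholangiocytes, the epithelial cells that line bile ducts. The labels do not say whether the libraries of a stage came from separate litters, so the p-values measure the spread between these libraries, which may be technical in part.

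Integrins are cell surface receptors for the extracellular matrix, each made of an alpha and a beta subunit that pair before they reach the membrane. Itgb1 is the common beta partner of many alpha subunits, Itga2, Itga3, Itga5, Itga6 and Itgav among them. With it, Itga3 and Itga6 form laminin receptors, Itga2 a collagen receptor and Itga5 the classical fibronectin receptor. Itgb4 pairs with Itga6 alone, and that receptor holds epithelial cells to the basement membrane at hemidesmosomes. Itgav also pairs with Itgb5, Itgb6 and Itgb8. Of these receptors, the one with Itgb5 binds vitronectin, and those with Itgb6 and Itgb8 are known for releasing active TGF-beta from its latent form. In the embryonic liver the matrix around the portal vein contains laminin, and the cells of the forming bile duct rest on it.

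The genes lie on 7 chromosomes of the mouse genome GRCm38. Itgb1 (ENSMUSG00000025809.15) spans 128685654 to 128733200 on the plus strand of chromosome 8. Itga2 (ENSMUSG00000015533.9) spans 114833081 to 114932100 on the minus strand of chromosome 13. Itgb8 (ENSMUSG00000025321.14) spans 119158022 to 119238802 on the minus strand of chromosome 12. TPM counts reads over the exons of a gene. Itgav shares 5.90% of its exon sequence with Gm13684 and Itgb4 shares 7.66% with B230344G16Rik, each on the opposite strand. Whether the counting used strand is not given in the sources used here, so reads in those stretches cannot be assigned with certainty. The other members share no exon sequence with another annotated gene.

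RefSeq start site windows of GRCm38.p6, from 250 bases before a gene's start to 50 after it, were given for 8 of the 10 members, not for Itga6 and Itgb4. The windows of 3 members are shown, because these genes mark the range of what was measured: Itgb1 had the highest level at both stages, Itga2 the largest decrease among the members and Itgb8 the largest increase. Capitals mark matches, on either strand, to 7 short motifs: the TATA box TATAAA, the GC box GGGCGG, the Ets motif CCGGAA, the GATA motif AGATAA, the Grainyhead motif AACCNGTT, the AP-1 motif TGANTCA and the TEAD motif GGAATG, where N is any base. The motifs were searched singly, and no matches overlapped within the 3 windows shown. Each sequence is written 5′ to 3′ on the strand of its gene.
Itgb1, chr8:128685404-128685703, plus strand: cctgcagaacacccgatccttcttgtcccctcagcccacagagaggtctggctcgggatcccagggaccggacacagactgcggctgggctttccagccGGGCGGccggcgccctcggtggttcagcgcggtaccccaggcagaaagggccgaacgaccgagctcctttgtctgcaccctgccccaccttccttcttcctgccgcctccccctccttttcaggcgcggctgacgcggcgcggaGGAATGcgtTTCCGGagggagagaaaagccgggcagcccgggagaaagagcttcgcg
Itga2, chr13:114932051-114932350, minus strand: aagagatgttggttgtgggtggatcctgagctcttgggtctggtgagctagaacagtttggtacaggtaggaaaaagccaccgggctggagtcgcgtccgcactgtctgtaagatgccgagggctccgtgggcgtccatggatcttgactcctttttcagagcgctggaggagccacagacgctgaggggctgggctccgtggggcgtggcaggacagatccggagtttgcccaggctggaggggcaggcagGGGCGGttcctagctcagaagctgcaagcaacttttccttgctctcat
Itgb8, chr12:119238227-119238526, minus strand: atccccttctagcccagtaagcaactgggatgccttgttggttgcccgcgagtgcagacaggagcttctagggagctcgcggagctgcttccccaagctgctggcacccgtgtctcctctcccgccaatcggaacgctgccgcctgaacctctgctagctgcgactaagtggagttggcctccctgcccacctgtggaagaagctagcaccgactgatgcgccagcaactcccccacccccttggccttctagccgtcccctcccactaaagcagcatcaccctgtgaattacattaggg

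The Itgb1 window held a GC box, an Ets motif and a TEAD motif, the Itga2 window held a GC box, and the Itgb8 window held none of the 7 motifs. Among the 32851 mouse windows of the same length, 35.7% held the GC box, 14.9% the Ets motif, 14.7% the TEAD motif, 13.6% the TATA box, 11.2% the GATA motif, 7.81% the AP-1 motif and 2.09% the Grainyhead motif. The GC content was 67.3% for Itgb1, 60.7% for Itgb8 and 59.3% for Itga2, against a median of 52.7% over all windows. A match describes the letters of the window and not the binding of a factor.

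The levels are TPM, transcripts scaled to a total of 1000000 in each library, which divide reads by exon length and by the library total. The exon length took in all annotated exons of a gene, whether or not the transcripts in these cells used them. Levels of different genes can therefore be compared only roughly. The recovered reads per library ranged from 23200608 to 26214829 for E16.5 and from 13096944 to 22649664 for E18.5. The 60 values of the members rested on 48 to 19711 reads, and 3 reads, the limit that a count of 0 allows, were worth 0.0316 to 0.220 TPM. Such limits take in counting error alone, because reads that lack molecular identifiers cannot be taken as separate molecules. The summed TPM of 11 biliary markers lay between 940 and 2872 at E16.5 and between 8680 and 14698 at E18.5. Each library had at least 1 TPM of 9 of them. Most of the E18.5 sum was Spp1, the osteopontin gene, at 6629 to 12121 TPM. Markers of hepatoblasts and hepatocytes, which the sort was not made for, summed to 163660 to 206006 TPM in E16.5 libraries and 37540 to 88054 TPM in E18.5 libraries. Markers of megakaryocytes and platelets summed to 3065 to 8933 and then 90.0 to 714 TPM. E16.5 replicate A stood apart in pancreatic acinar markers, with 2406 TPM against 77.6 to 220 in the other E16.5 libraries and 14.4 to 52.6 at E18.5. Without that library 6 members in place of 7 passed the test described next, Itgb5 being the exception. In bulk RNA, fewer cells of a type and less RNA per cell cannot be told apart.

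To ask which subunits differed between the stages, log2(TPM + 1) was compared with limma over 22452 genes whose mean was at least 1 TPM, and an adjusted p under 0.05 was called. All 10 members passed the filter on low values. At E18.5, Itgb8, Itgb4, Itga3 and Itgav were higher and Itga2, Itga6 and Itgb5 were lower, while Itga5, Itgb1 and Itgb6 did not pass the test. These are 4 of 10 members called higher, beside 26.0% of all genes tested, and 3 of 10 called lower, beside 5.22%. The median log2 difference was 0.42 over the members and 0.42 over all genes, so most genes had a higher TPM at E18.5. A median-of-ratios scaling, which divides each library by its median ratio to the average library, brought the median of all genes to 0.01 and that of the members to -0.00. Under that scaling 2 of 10 members (Itgb4 and Itgb8) were called higher, beside 6.85% of genes, and 4 of 10 (Itga2, Itga5, Itga6 and Itgb5) were called lower, beside 10.5%. Both values are given for each member below.

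The TPM of the 2 stages did not overlap for any of the 10 members. They were higher at E18.5 for 6 members, beside 45.0% of all genes, and lower for 4, beside 8.30%. In a two-sided exact permutation test of 3 against 3 libraries such a gap gives p = 0.1, the smallest p this design allows.

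**Figure D1:**
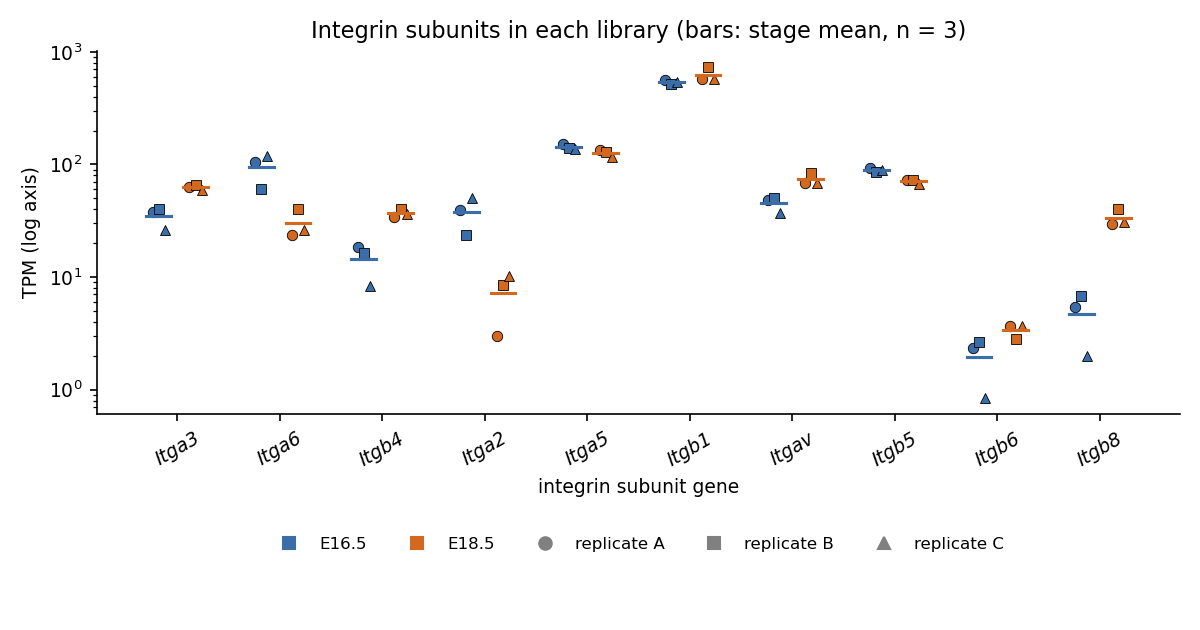
TPM of each member (log axis) in the 3 libraries of E16.5 and the 3 of E18.5, with a bar at the mean of each stage. Itgb1 lies at 513 TPM or more in every library. Itgb8 lies at 6.77 TPM or less at E16.5 and at 29.3 TPM or more at E18.5, and Itga2 at 23.7 TPM or more and then at 10.2 TPM or less.

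**Figure D2:**
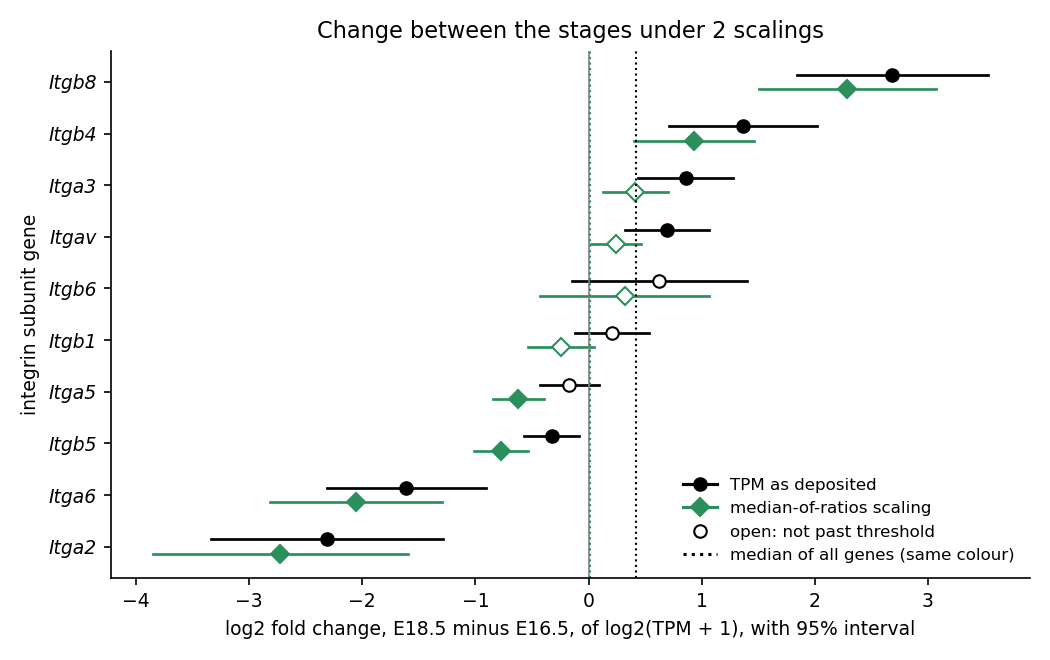
Log2 difference of E18.5 minus E16.5 for each member with its 95% confidence interval, on the TPM as deposited (black) and after median-of-ratios scaling (green), open where the adjusted p did not pass, with dotted lines at the median of all genes. The scaling moves every member lower by about the same amount, and only Itgb1 changes sign, from 0.21 to -0.25.

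Itgb1, the shared beta subunit, had the highest level of the 10 genes at both stages. At E16.5 its level in replicates A, B and C was 563, 513 and 541 TPM, and at E18.5 it was 574, 729 and 577 TPM. The lowest E18.5 library was thus just above the highest E16.5 library, and E18.5 replicate B stood above the rest. The means were 539 ± 25.2 TPM (SD, n = 3) and 627 ± 88.9 TPM (SD, n = 3), at the 99.5th and 99.6th percentile of protein-coding genes. The log2 difference was 0.21 ± 0.14 (SE), with a 95% interval of -0.12 to 0.54 and a limma adjusted p of 0.267. After median-of-ratios scaling it was -0.25, with a limma adjusted p of 0.207. No direction can therefore be given for Itgb1.

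Of the laminin receptor subunits, Itga3 and Itgb4 were higher at E18.5 and Itga6 was lower. Itga6, the alpha subunit that pairs with Itgb1 or Itgb4, had levels of 105 (A), 60.8 (B) and 120 (C) TPM at E16.5, against 23.6, 40.6 and 26.2 TPM at E18.5. All 3 later libraries lay below all 3 earlier ones, and replicate B was the lowest at E16.5 and the highest at E18.5. The mean fell from 95.2 ± 30.7 to 30.1 ± 9.14 TPM (SD, n = 3 each), 3.16-fold lower, and the log2 difference was -1.61 ± 0.30 (SE, limma adjusted p = 0.0139). After median-of-ratios scaling it was -2.06 (limma adjusted p = 0.0143). Without E18.5 replicate A the adjusted p in limma was 0.0529, just past the threshold, at a log2 difference of -1.46.

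Itgb4, the partner of Itga6 in hemidesmosomes, had 18.3, 16.5 and 8.31 TPM at E16.5 and 34.5, 39.9 and 36.0 TPM at E18.5. The E18.5 libraries lay close together, and E16.5 replicate C was the lowest. The mean was 14.4 ± 5.33 and then 36.8 ± 2.76 TPM (SD, n = 3 each), 2.56-fold higher, with a log2 difference of 1.36 ± 0.28 (SE, limma adjusted p = 0.0162). The value after median-of-ratios scaling was 0.93 (limma adjusted p = 0.0367). Leaving out E18.5 replicate A or B gave limma adjusted p of 0.0552 and 0.0505, with log2 differences of 1.41 and 1.31.

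Itga3, which pairs with Itgb1 in a receptor for laminins of epithelial basement membranes, had 37.5, 40.4 and 25.9 TPM at E16.5 and 63.2, 65.8 and 58.7 TPM at E18.5. As with Itgb4, E16.5 replicate C was the lowest library. The mean was 34.6 ± 7.66 and then 62.6 ± 3.55 TPM (SD, n = 3 each), and the log2 difference was 0.86 ± 0.18 (SE, limma adjusted p = 0.0172). The call was lost after median-of-ratios scaling, at 0.41 (limma adjusted p = 0.0602), and without E18.5 replicate A (0.0612) or B (0.0519).

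The level of Itga2, the alpha subunit of a collagen receptor, fell more than that of any other member. The E16.5 libraries A, B and C had 39.7, 23.7 and 50.2 TPM and the E18.5 libraries 2.99, 8.42 and 10.2 TPM. The libraries within a stage differed by up to 2.12-fold at E16.5 and 3.40-fold at E18.5, and the stages stayed apart. The mean went from 37.9 ± 13.3 to 7.20 ± 3.75 TPM (SD, n = 3 each), 5.26-fold lower, and from the 83.6th to the 50.5th percentile of protein-coding genes. The log2 difference was -2.31 ± 0.43 (SE, 95% interval -3.34 to -1.29, limma adjusted p = 0.0142), and -2.72 after median-of-ratios scaling (limma adjusted p = 0.0173). The call held in each of the 15 alternative fits, with limma adjusted p of 0.00634 to 0.0419.

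Itga5, the alpha subunit of the fibronectin receptor, was second only to Itgb1 in level among the 10 members at both stages. It had 151, 140 and 136 TPM at E16.5 and 136, 128 and 116 TPM at E18.5. The highest E18.5 library and the lowest E16.5 library were nearly equal. The means were 142 ± 8.06 and 127 ± 9.70 TPM (SD, n = 3 each), and the log2 difference was -0.17 ± 0.11 (SE, 95% interval -0.43 to 0.09, limma adjusted p = 0.254). Relative to the rise of most genes, Itga5 was lower: after median-of-ratios scaling the log2 difference was -0.62 (limma adjusted p = 0.0137). Its call thus depended on the scaling.

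Within the Itgav group, Itgav and Itgb8 were higher at E18.5 and Itgb5 was lower. Itgb8, the beta subunit of a receptor for latent TGF-beta, rose more than any other member. In the order A, B, C it had 5.42, 6.77 and 1.98 TPM at E16.5 against 29.3, 39.9 and 30.9 TPM at E18.5. The lowest E18.5 library was several times the highest E16.5 library, and E16.5 replicate C was the lowest of all. The mean was 4.72 ± 2.47 and then 33.4 ± 5.75 TPM (SD, n = 3 each), 7.06-fold higher, which moved Itgb8 from the 49.8th to the 76.8th percentile of protein-coding genes. The log2 difference was 2.68 ± 0.36 (SE, 95% interval 1.84 to 3.53, limma adjusted p = 0.00890), and 2.29 after median-of-ratios scaling (limma adjusted p = 0.0127). This call too held in all 15 alternative fits, with limma adjusted p of 0.00313 to 0.0372.

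Itgav, the alpha subunit that Itgb5, Itgb6 and Itgb8 pair with, had 48.7, 50.9 and 37.1 TPM at E16.5 and 69.0, 83.7 and 68.7 TPM at E18.5. E16.5 replicate C was again the lowest library, and E18.5 replicate B the highest. The mean was 45.5 ± 7.43 and then 73.8 ± 8.57 TPM (SD, n = 3 each), with a log2 difference of 0.69 ± 0.16 (SE, limma adjusted p = 0.0215). After median-of-ratios scaling the value was 0.24 (limma adjusted p = 0.115), and quantile normalization gave 0.40 (limma adjusted p = 0.0608). The call was also lost without E18.5 replicate A (limma adjusted p = 0.0622) or B (0.0614).

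Itgb5, the beta subunit of a vitronectin receptor, had 93.1, 85.1 and 89.5 TPM at E16.5 and 73.0, 73.3 and 66.6 TPM at E18.5. It varied least within a stage, by up to 1.09-fold at E16.5 and 1.10-fold at E18.5. The mean fell from 89.2 ± 4.04 to 70.9 ± 3.78 TPM (SD, n = 3 each), and the log2 difference was -0.33 ± 0.10 (SE, limma adjusted p = 0.0487). The call stood at the threshold and held in 5 of the 15 alternative fits. It was lost on leaving out any of the 6 libraries (limma adjusted p of 0.0830 to 0.136, log2 difference -0.36 to -0.28). A pseudocount of 0.1 (limma adjusted p = 0.0507) or no filter on low values (0.0851) also lost it. So did no mean-variance trend (0.106) and rescaling without haemoglobin, mitochondrial and small structural RNA genes (0.0556). After median-of-ratios scaling the value was -0.78 (limma adjusted p = 0.0118).

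Itgb6, a beta subunit known from epithelia under repair and in development, was the lowest member at both stages. It had 2.36, 2.63 and 0.846 TPM at E16.5 and 3.64, 2.81 and 3.67 TPM at E18.5, on 48 to 177 reads per library. The stages were apart by little, and E16.5 replicate C again was the lowest. The means were 1.95 ± 0.963 and 3.37 ± 0.490 TPM (SD, n = 3 each), with a log2 difference of 0.62 ± 0.33 (SE, 95% interval -0.15 to 1.40, limma adjusted p = 0.173). The interval took in 0, so no direction can be given for Itgb6. After median-of-ratios scaling its log2 difference was 0.32 (limma adjusted p = 0.514).

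The order of the levels changed between the stages. At E16.5 it ran from Itgb1 (539 TPM) through Itga5 (142), Itga6 (95.2), Itgb5 (89.2), Itgav (45.5), Itga2 (37.9), Itga3 (34.6), Itgb4 (14.4) and Itgb8 (4.72) to Itgb6 (1.95). The libraries of Itga6 and Itgb5, of Itgav and Itga2, of Itga2 and Itga3, and of Itgb8 and Itgb6 overlapped. Which gene was higher differed between libraries in the first 3 of these pairs, while Itgb8 was above Itgb6 in every E16.5 library. At E18.5 it ran from Itgb1 (627 TPM) through Itga5 (127), Itgav (73.8), Itgb5 (70.9), Itga3 (62.6), Itgb4 (36.8), Itgb8 (33.4), Itga6 (30.1) and Itga2 (7.20) to Itgb6 (3.37). There the ranges of Itgav and Itgb5, of Itgb4 and Itgb8, of Itgb8 and Itga6, and of Itga2 and Itgb6 overlapped.

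Shares within a library do not depend on the scaling between libraries. Among the summed TPM of the 5 alpha members, Itga6 took 26.4% ± 6.65 at E16.5 and 9.93% ± 2.26 at E18.5 (SD, n = 3 each). The share of Itga2 went from 10.5% ± 3.04 to 2.41% ± 1.32. Over the same interval Itga3 went from 9.88% ± 2.89 to 20.9% ± 0.678, and Itgav from 13.0% ± 3.04 to 24.5% ± 1.09. Thus the sum of the 5 alpha members was made up more of Itga3 and Itgav and less of Itga6 and Itga2 at E18.5. The libraries of the stages did not overlap for these 4. Of these 5 members Itga5 kept the largest share, 40.3% ± 3.74 and 42.3% ± 3.46, with overlapping libraries. Among the 5 beta members, Itgb1 took 83.0% ± 1.13 and 81.2% ± 1.07, also with overlap. Itgb8 went from 0.729% ± 0.392 to 4.31% ± 0.206 and Itgb4 from 2.21% ± 0.790 to 4.79% ± 0.275. Itgb5 went from 13.7% ± 0.176 to 9.27% ± 0.968. Within the sum of the 5 beta members, the part outside Itgb1 thus shifted from Itgb5 towards Itgb4 and Itgb8. Itgb6 stayed under 1%, at 0.300% ± 0.150 and 0.447% ± 0.112, with overlapping libraries. These shares leave out the other subunits, among them Itgb3, whose stage mean dropped from 917 to 56.3 TPM. Also left out is Itga2b, with stage means of 424 and 27.7 TPM. At E16.5 its mean was above that of the summed 5 alpha members, 356 TPM. The shares therefore do not describe the alpha or the beta transcripts as a whole.

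Within each library 13 ratios were taken, 9 between an alpha and a beta subunit that pair and 4 of another beta subunit to Itgb1. Of the 9 between partners, 3 were higher at E18.5 in every library, 5 were lower in every library and 1 overlapped. Of the 4 between beta subunits 2 were higher, 1 was lower and 1 overlapped. The TPM of single genes had such a gap for 45.0% (higher) and 8.30% (lower) of all genes, and ratios over all genes were not taken. A ratio with no overlap had p = 0.1 in the two-sided exact permutation test, or 0.118 after Benjamini-Hochberg adjustment over the 13, so none can pass 0.05 at this size. The ratio of Itga6 to its partner Itgb4 was 5.74 (A), 3.69 (B) and 14.4 (C) at E16.5, against 0.684, 1.02 and 0.727 at E18.5. The TPM of Itga6 was thus above that of Itgb4 in every E16.5 library, and the ratio was 8.44-fold lower at E18.5, near or below 1. The ratio of Itgb8 to Itgav was 0.111, 0.133 and 0.0535 at E16.5 and 0.424, 0.477 and 0.449 at E18.5, 4.86-fold higher. That of Itgb5 to Itgav was 1.91, 1.67 and 2.42 at E16.5 and 1.06, 0.875 and 0.970 at E18.5, 2.05-fold lower. Itgb6 to Itgav overlapped between the stages (exact permutation p = 0.5). Compared with Itgb1, the geometric mean ratio of Itga2 fell from 0.0671 to 0.0102, 6.57-fold lower, while that of Itga3 was 1.59-fold higher. The TPM of Itgb1 divided by the summed TPM of its 12 alpha partners was 1.29, 1.45 and 1.32 at E16.5. At E18.5 this quotient was 1.60, 1.76 and 1.55, so it was above 1 in every library. It depends on the exon lengths used, such as 4081 bases for Itgb1 and 10744 for Itgav. Whether Itgb1 transcripts outnumbered those of its partners therefore cannot be told from it.

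**Figure D3:**
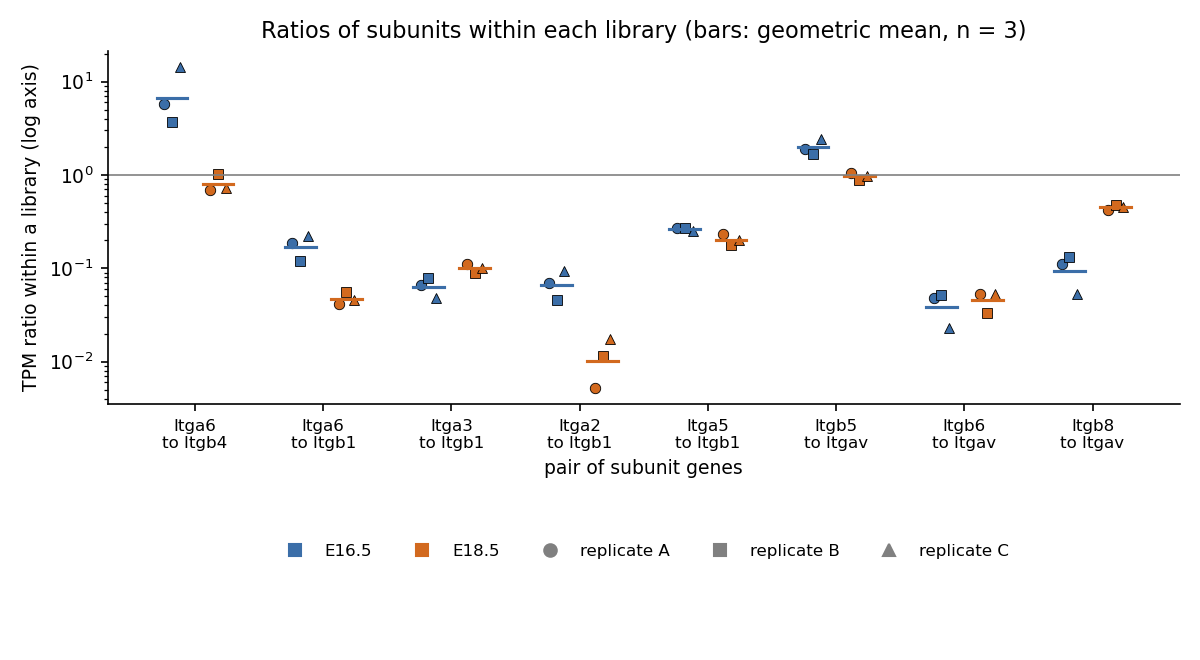
Ratio of the TPM of 8 of the 9 pairs of partner subunits within a library (log axis), for the 3 libraries of each stage, with a bar at the geometric mean. The ratio of Itga6 to Itgb4 lies at 3.69 or more in E16.5 libraries and at 1.02 or less in E18.5 libraries, and that of Itgb8 to Itgav lies at 0.133 or less and then at 0.424 or more.

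Markers of other cell types moved between the same libraries. Counts of markers, other subunits and listed genes called stand beside 26.0% of all genes called higher and 5.22% called lower. After median-of-ratios scaling these shares were 6.85% and 10.5%. The 12 megakaryocyte and platelet markers, cells in which Itga2 and Itga6 are known as platelet receptors for collagen and laminin, were all called lower at E18.5, with a median log2 difference of -4.19. Their summed TPM at E16.5 was 5302 (A), 3065 (B) and 8933 (C), and at E18.5 it was 90.0, 714 and 209. The E16.5 libraries stood in the same order for this sum, for Itga2 and for Itga6, with B lowest and C highest. At E18.5 Itga6 followed the order of the sum and Itga2 did not. Every library had at least 1 TPM of 11 of these markers, Gp6 being the exception, and none was at 0 in all libraries. The part of these cells in the levels of Itga2 and Itga6 was not tested.

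The summed TPM of the biliary markers at E16.5 was 2337 (A), 2872 (B) and 940 (C). At E18.5 it was 12435, 14698 and 8680, with 9 of 11 markers called higher. Spp1 alone had 1278, 1767 and 469 TPM of this sum at E16.5 and 10012, 12121 and 6629 TPM at E18.5. Most of the E18.5 sum was thus a single gene. E16.5 replicate C had the lowest biliary sum and also the lowest Itgb8, Itgb4, Itga3, Itgav and Itgb6. At E18.5 replicate C again had the lowest biliary sum, and the lowest Itga3 and Itgav. There Itgb8 and Itgb4 were lowest in replicate A and Itgb6 in replicate B. Of the 10 hepatoblast markers 7 were called lower, and no library had under 1 TPM of any of them. Mesothelial markers, a list of 5, were all called higher, at summed TPM of 2.15 to 8.88 and then 34.3 to 80.1, and each of the 5 was under 1 TPM in some library. The 10 endothelial markers summed to 133 to 210 TPM in E16.5 libraries and 132 to 251 TPM in E18.5 libraries, with 2 called higher, and the 9 mesenchymal markers to 115 to 265 and then 255 to 722, with 2 called higher. The 10 leukocyte markers summed to 131 to 258 and then 87.2 to 180 TPM, with 1 called in each direction, and the 8 erythroid markers to 217 to 293 and then 103 to 594, with all 8 short of the threshold. No marker of these lists was at 0 in all libraries. Their part in the levels of the members was not tested.

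**Figure D4:**
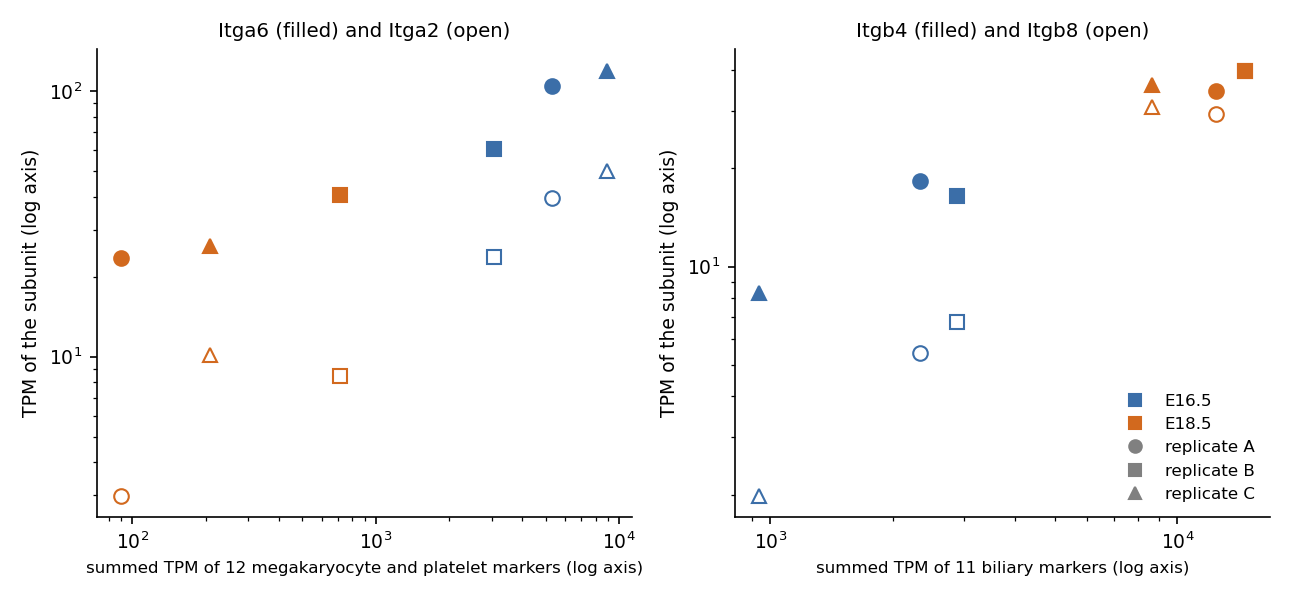
TPM of Itga6 (filled) and Itga2 (open) against the summed TPM of 12 megakaryocyte and platelet markers, and of Itgb4 (filled) and Itgb8 (open) against the summed TPM of 11 biliary markers, in the 6 libraries (log axes). In the first panel the E16.5 libraries lie at marker sums of 3065 to 8933 and the E18.5 libraries at 90.0 to 714. In the second they lie at 940 to 2872 and at 8680 to 14698, where Spp1 makes up most of the E18.5 sums.

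Of the 17 other integrin subunits, 12 passed the filter and were tested, and 4 were called higher and 4 lower at E18.5. The largest falls were those of Itgb3 and Itga2b, which pair as the platelet fibrinogen receptor. Itgb3, also a partner of Itgav, had 896, 517 and 1337 TPM at E16.5 and 18.6, 111 and 39.4 TPM at E18.5. At E16.5 Itgb3 was the beta subunit with the highest mean of all, above Itgb1, though its replicate B was near that of Itgb1. Its log2 difference was -4.26 ± 0.63 (SE, limma adjusted p = 0.0100), and that of Itga2b, a gene of the megakaryocyte list, was -4.05 ± 0.55 (SE, limma adjusted p = 0.00890). The leukocyte subunits Itgb2 and Itgal were lower by the same test, with log2 differences of -3.69 and -1.83. Itgb2 is also on the leukocyte marker list, as the 1 marker called lower. Of that list 1 marker was called higher and 7 did not pass, with a median log2 difference of 0.56. Called higher were Itga1, Itga8, Itga9 and Itgb2l, with log2 differences of 0.64 to 1.36. After median-of-ratios scaling the 4 falls were still called and Itgb2l alone of the rises.

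**Figure D5:**
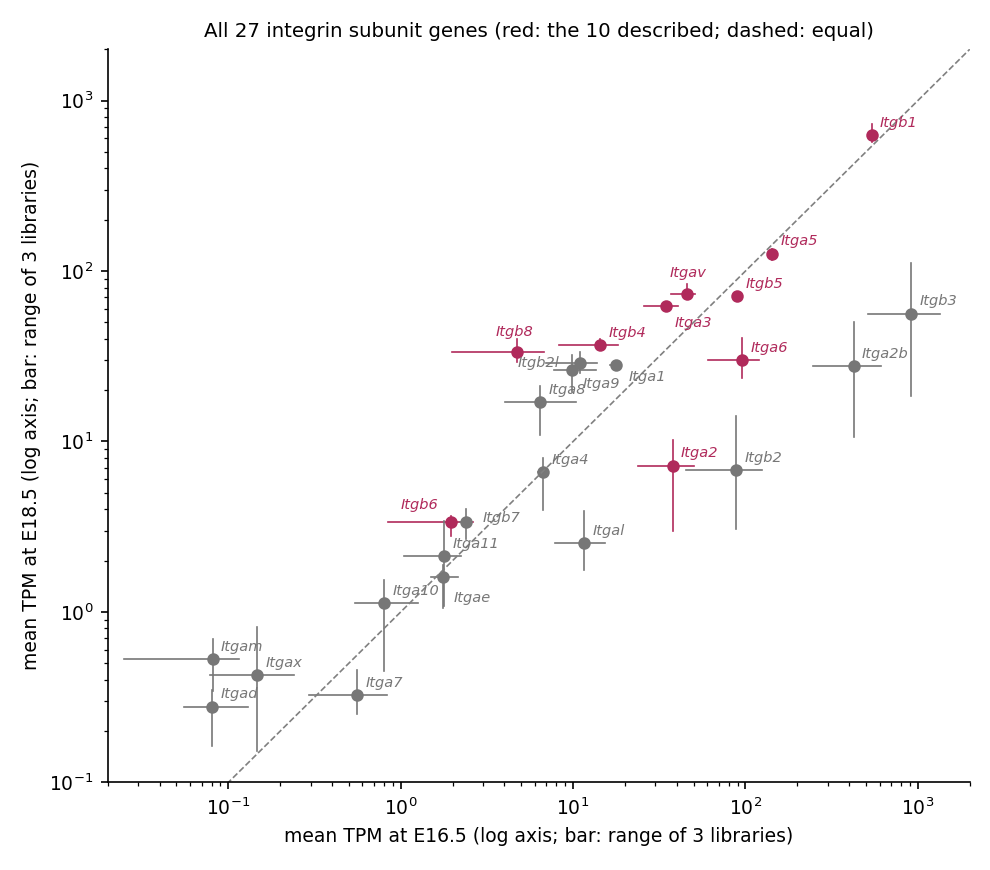
Mean TPM at E18.5 against mean TPM at E16.5 for the 27 integrin subunit genes (log axes), with bars for the range of the 3 libraries and a dashed line of equal values. The 10 members are in red. Itgb8 and Itgb4 lie above the line, and Itga6, Itga2 and the platelet subunits Itgb3 and Itga2b lie below it.

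Transcripts of the ligands were described from lists of known matrix genes. Of the 11 laminin chains, the ligands of the Itga3 and Itga6 receptors, 10 were called higher at E18.5 and 1 did not pass. That chain, Lama1, named after its values were seen, had means of 65.9 and 102 TPM and a limma adjusted p of 0.0802. The median log2 difference of the list was 1.20, beside 0.42 over all genes, and 0.83 after median-of-ratios scaling, where 3 of 11 were called higher. Lama4, a chain of vessel basement membranes, had 2.55 ± 0.925 TPM and then 9.54 ± 2.60 TPM (SD, n = 3 each), a log2 difference of 1.58 (limma adjusted p = 0.0140).

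Of 14 other matrix ligands 5 were called higher and 3 lower, with a median log2 difference of 1.07. Spp1, the RGD ligand osteopontin and also a biliary marker, went from 1171 ± 655 to 9587 ± 2771 TPM (SD, n = 3 each), a log2 difference of 3.19 (limma adjusted p = 0.0106). Col4a1, a collagen chain of basement membranes, had a log2 difference of 1.24 (limma adjusted p = 0.0123). In the other direction, Thbs1, a matrix protein that platelets store, went from 1414 ± 621 to 102 ± 52.3 TPM (SD, n = 3 each), and Nid1, which links laminin to collagen, from 256 ± 19.2 to 127 ± 26.1 TPM. Their log2 differences were -3.82 and -1.02. All 4 named ligands kept their call after median-of-ratios scaling, where 4 of the list were higher and 3 lower.

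Of 9 genes listed for the handling of latent TGF-beta, 4 were called higher and 4 lower, with a median log2 difference of 0.44. Tgfb3, a TGF-beta ligand, went from 2.98 ± 0.841 to 12.4 ± 1.64 TPM, and Ltbp3, which anchors the latent form in the matrix, from 15.7 ± 6.90 to 55.0 ± 2.61 TPM (SD, n = 3 each). Their log2 differences were 1.76 (limma adjusted p = 0.00852) and 1.85 (0.0132). Tgfb1, the ligand that platelets carry, went from 67.2 ± 29.4 to 8.13 ± 3.71 TPM, and Lrrc32, which displays it on the cell surface, from 47.2 ± 17.0 to 7.36 ± 3.64 TPM (SD, n = 3 each). Their log2 differences were -2.91 and -2.57. The 4 falls and 2 of the rises remained as counts after median-of-ratios scaling, and the 4 named genes kept their calls.

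Of 32 genes of the adhesion complex, which links integrin tails to actin, 31 were tested. There 9 were called higher, beside 26.0% of all genes, 9 were called lower, beside 5.22%, and 13 did not pass. The untested gene, Ilk, a pseudokinase that binds beta tails, was under the filter, with 0.643 and 0.505 TPM. It is an exception to the rule for naming listed genes given below. Overlap of exons with other genes was examined for the 10 members only, so reads of Ilk lost in counting were not tested for. The median log2 difference was 0.26, and -0.17 after median-of-ratios scaling, where 4 were higher and 10 lower. Tns1, a tensin of mature adhesions, went from 38.7 ± 3.89 to 132 ± 10.6 TPM and Dock1, an activator of Rac, from 62.7 ± 9.94 to 199 ± 21.6 TPM (SD, n = 3 each). Their log2 differences were 1.75 (limma adjusted p = 0.00398) and 1.65 (0.00580). Fermt3, the kindlin of blood cells, went from 718 ± 335 to 54.9 ± 35.0 TPM, and Parvb, a parvin, from 163 ± 76.2 to 13.0 ± 6.52 TPM (SD, n = 3 each). Their log2 differences were -3.76 and -3.56, and both fell together with the megakaryocyte markers given above, whose part was not tested.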

How the data were processed

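RNA was measured in 3 libraries of E16.5 and 3 of E18.5, mapped to stages by the sample labels. Per the study's methods, the authors trimmed the reads, mapped them to GRCm38 (HISAT2), counted them for each gene of GENCODE vM15 (HTSeq-count) and turned the counts into TPM. These TPM are the deposited values, with a total of 1000000 per library. The submitters' processing notes name FastQC 0.11.7, HISAT2 2.1.0 and HTSeq 0.5.4p3. Mapped symbols and places came from GENCODE vM21, which held 52403 of the 52550 listed identifiers, 49035 of them with the same version.

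Depth was recovered as TPM times exon length. Among the 49035 genes with the same identifier version, 100.0% of nonzero values were whole within 0.01 reads. The 49585 genes used were by definition those whose values came out whole in every library, together with Itga5 and Itgb5. For Itga5 and Itgb5, whose identifier version differs, the exon length was solved from the values. Same-stage libraries differed by a chi-square per degree of freedom of at least 17.1, so each was its own library.

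To compare the stages, limma 3.58.1 in R 4.3.3 was run (empirical Bayes with a mean-variance trend) on log2(TPM + 1), which understates the change of low genes, over genes whose mean reached 1 TPM, and p was adjusted over all of them (Benjamini-Hochberg). Exact permutation tests, shares and ratios were computed in Python 3.11.15 with SciPy 1.17.1, ratios without a pseudocount. The fit was tested on simulated data. The same replicate letter did not make libraries alike, so the main fit had no block. Named are all 10 members, other subunits past the same filter, and of each list up to 2 rises and 2 falls with adjusted p under 0.05 and 5 TPM or more in the higher stage's mean, besides the exceptions stated. A few listed genes are left unnamed. The 10 members and the lists were chosen with earlier results of these data known. Alternatives were a pseudocount of 0.1, no filter or one at 5 TPM, quantile normalization, median-of-ratios scaling, rescaling with haemoglobin, mitochondrial and small structural RNA genes left out, no trend, the replicate letter as a block, limma voom on recovered reads, and leaving out each library in turn.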

Additional observations from a re-analysis of the deposited data

How the results depend on the processing

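Of 7 members called between the stages, 2 to 6 remained as a count on leaving out 1 library, 2 without E18.5 replicate A and 3 without E18.5 replicate B. The 4 called higher became 2 after median-of-ratios scaling and 1 to 4 without 1 library, with 1 on leaving out E18.5 replicate A or B, and the 3 called lower became 1 to 2, with 1 without E18.5 replicate A. Over all genes 7000 were called, 83.3% of them higher. That count was 4282 with no filter on low values, 3871 (39.5% higher) after median-of-ratios scaling, 3796 (50.5% higher) after quantile normalization, and 1472 to 5686 without 1 library, lowest without E18.5 replicate A. Fewer samples entered those fits; the cause of the other changes was not tested. The log2 difference of Itgb1 reversed to -0.25 after median-of-ratios scaling, and the log2 ratio of Itgb6 to Itgav ranged from -0.14 to 0.46 without 1 library, reversed without E16.5 replicate C. Of 149 values for the members' log2 differences, 125 kept their direction and side of the threshold. For the ratios 90 of 91 values, and for the shares all 60, kept their direction and moved by less than 1 SD. The SD taken was the larger of those of the stages. With the replicate letter as a block, 7 members and 7314 genes were called and no member's call changed, but the libraries share only a letter, with correlations of deviations of -0.04 for A, 0.08 for B and 0.14 for C. Depth limits Itgb6 most, which rested on 48 reads in its lowest library.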

Other observations

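Of the 4 hemidesmosome genes, 1 was called higher at E18.5 by limma, beside 26.0% of all genes, and 3 did not pass. Their median log2 difference was 0.35. Plec, the plectin that ties Itgb4 to keratin filaments, went from 37.8 ± 7.50 to 60.0 ± 3.54 TPM (SD, n = 3 each), a log2 difference of 0.67 (limma adjusted p = 0.0247). After median-of-ratios scaling Plec stood at 0.22 (limma adjusted p = 0.249), and 2 genes of the list, Dst and Cd151, were called lower, both named after their values were seen. Of 9 surface partners of integrins, 3 were called higher and 1 lower, with a median of 0.30, and after scaling 1 was higher and 3 were lower. Cav1, the coat protein of caveolae, went from 4.81 ± 2.39 to 36.6 ± 9.57 TPM (SD, n = 3 each), a log2 difference of 2.75 (limma adjusted p = 0.00854), and remained called at 2.35. Plaur, the urokinase receptor, had a log2 difference of 2.13 (limma adjusted p = 0.0234), which no longer passed after scaling (limma adjusted p = 0.0751). Cd9, a tetraspanin found on platelets and epithelia, had 172, 127 and 250 TPM at E16.5 and 102, 87.0 and 106 TPM at E18.5, a log2 difference of -0.84 (limma adjusted p = 0.0379).

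The protein-coding genes whose log2(TPM + 1) followed Itgb8 most closely over the 6 libraries were Crebbp, Map4k5, Tanc1, Wwc2 and Zfp790, the last of them with a Pearson r of 0.999. They were picked from 11382 genes, of which 3032 had an r above 0.95, and the 6 points share the stage difference, so the likeness is a description only.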
